A study of Rattus norvegicus with 9 samples.

Results

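Calreticulin (Calr) and 9 genes of the unfolded protein response, the stress programme of the endoplasmic reticulum (ER), were followed in the circulating mononuclear cells of rats on 2 diets: Calr, Canx, Hspa5, Hsp90b1, Pdia4, Xbp1, Atf4, Atf6, Ddit3 and Trib3. All probes were taken whose name in the scanner files was one of these symbols, or whose accession was a RefSeq transcript of the gene. That gave 10 probes for 9 of the 10 genes, out of 41012 probes other than controls. Hsp90b1 had 2 probes and Xbp1 had no probe by this rule. The genes were chosen with differences between the diets in these same arrays in view, so those differences are given as a description, and counts of probes called by the fit stand beside the same counts over all probes, with nothing read from them.

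The cells were peripheral blood mononuclear cells (PBMC), the mix of lymphocytes and monocytes kept by a Ficoll gradient. The donors were 9 Wistar rats, all male, 6 months old and bled in the fed state. The 4 control rats ate standard chow. The 5 cafeteria rats were offered energy-dense, fatty foods beside the same chow, starting at 2 months of age and lasting 4 months, a common rat model of diet-induced obesity. Per the labels, 10 rats entered the study, 5 in each group, and 1 control was dropped for too little RNA. Each rat had 1 array, with its RNA in the red dye (Cy5) and a pool of all samples in the green dye (Cy3). Each value below is thus a normalized log2 ratio of 1 rat to that pool, where a step of 1 is a doubling. The dyes were never swapped, so any dye bias of a probe stays in its ratio and 0 need not be the level of the pool. The erythroid marker Car2, for example, lay between -0.85 and -0.08 in all 9 rats.

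The ER folds secreted and membrane proteins. Calreticulin, in its lumen, and calnexin (Canx), in its membrane, are lectin chaperones that hold newly made glycoproteins, and calreticulin also stores calcium and loads peptides on MHC class I. Hspa5 (BiP) and Hsp90b1 (GRP94) are the Hsp70 and Hsp90 chaperones of the compartment, and Pdia4 is one of its disulfide isomerases. When unfolded protein accumulates, the sensors Atf6, Ern1 (IRE1) and Eif2ak3 (PERK) act: cleaved Atf6 and spliced Xbp1 raise the chaperones, while PERK raises translation of Atf4, which induces Ddit3 (CHOP) and Trib3. In blood the cells richest in this machinery are plasma cells, which secrete antibody, so plasma cell markers were read beside the chaperones.

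The chaperone genes carry a known control element, the ER stress response element (ERSE), bound by Atf6 and NF-Y. The 250 bases before the RefSeq start of 4 members are shown for it, on the GRCr8 build and each 5′ to 3′ on the strand of its gene, with ERSE matches in capitals. They lie at chr19:40213117-40213366 (plus strand) for Calr, chr3:38452766-38453015 (plus) for Hspa5, chr7:23012294-23012543 (minus) for Hsp90b1 and chr10:35157858-35158107 (minus) for Canx.
Calr: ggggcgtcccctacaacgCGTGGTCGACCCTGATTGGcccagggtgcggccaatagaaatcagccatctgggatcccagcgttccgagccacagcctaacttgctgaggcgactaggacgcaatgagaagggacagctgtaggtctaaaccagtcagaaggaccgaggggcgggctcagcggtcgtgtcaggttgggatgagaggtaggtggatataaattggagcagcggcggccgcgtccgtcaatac
Hspa5: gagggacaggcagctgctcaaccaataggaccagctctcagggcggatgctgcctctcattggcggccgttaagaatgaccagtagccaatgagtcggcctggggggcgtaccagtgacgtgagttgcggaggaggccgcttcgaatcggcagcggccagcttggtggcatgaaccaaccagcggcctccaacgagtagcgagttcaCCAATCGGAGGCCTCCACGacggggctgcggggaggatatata
Hsp90b1: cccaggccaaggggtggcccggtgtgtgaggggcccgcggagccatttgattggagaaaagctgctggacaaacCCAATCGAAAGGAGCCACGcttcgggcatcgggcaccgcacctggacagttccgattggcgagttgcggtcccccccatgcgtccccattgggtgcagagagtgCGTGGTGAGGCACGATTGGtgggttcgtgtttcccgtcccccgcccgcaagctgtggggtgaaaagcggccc
Canx: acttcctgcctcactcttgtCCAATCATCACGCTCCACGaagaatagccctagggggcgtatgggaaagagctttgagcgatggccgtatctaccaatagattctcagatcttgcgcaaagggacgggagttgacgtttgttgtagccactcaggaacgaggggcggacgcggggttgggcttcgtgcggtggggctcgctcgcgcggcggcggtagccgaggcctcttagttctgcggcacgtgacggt

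The ERSE was searched as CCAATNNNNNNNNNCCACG on both strands, over the window from 250 bases before to 50 after each start. It was found in 22 of 33469 RefSeq promoters (0.0657%). Those 22 included 5 of the 9 members in the table (Atf6 was not listed in it): Calr, Canx, Hspa5, Hsp90b1 and Xbp1. In Hsp90b1 it matched at 2 places, once on each strand, beginning 176 and 72 bases before the start. In Hspa5 it began 43 bases before the start, the nearest of the 4 genes shown, whereas in Calr and Canx it began 232 and 230 bases before, and in Calr it read on the opposite strand (CGTGGTCGACCCTGATTGG). Its first 5 letters are also a CCAAT box, a much commoner word that 37.5% of promoters held, among them those of 7 members.
The UPRE core TGACGTG, a site of the Xbp1 and Atf6 family, was in the window of Hspa5 and in 1.81% of promoters. The second form of the ERSE, ATTGGNCCACG, was in 0.0508% of promoters and in no member. The core of the C/EBP-ATF composite element, TGATGNAA, which Atf4 binds, was in the window of Trib3 and in 3.98% of promoters. These are matches of letters in a reference sequence, not measured binding.

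All 90 spots of the members (10 probes on 9 arrays) were well above background in both dyes, none was saturated and none was marked as an outlier by the scanner software. Over whole arrays, 58.8% to 66.7% of spots other than controls had Cy5 well above background. The number of arrays limits the precision. Probes well above background on at least 4 arrays were found for 11 of 12 T cell, 9 of 12 B cell and 12 of 12 monocyte markers. They were also found for 10 of 11 platelet, 10 of 13 erythroid and 6 of 11 neutrophil markers. As 25811 of all 41012 probes passed the same filter, detection alone cannot check the label PBMC. The arrays lay on 7 slides, of which 2 held both groups (control 1 with cafeteria 1, and control 13 with cafeteria 10). The headers give 2 sessions of image feature extraction, the first with control 4, control 7 and cafeteria 4. Numbers after a group name are the animal numbers of the labels.

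Calr was the member furthest apart between the diets. Its log2 ratio was 0.75, 0.34, 0.02 and -0.19 in controls 1, 4, 7 and 13. It was -0.62, -0.19, -0.58, -0.70 and -0.68 in cafeteria rats 1, 4, 7, 10 and 13. Of the 5 cafeteria rats, 4 lay below every control, and cafeteria 4 (-0.185) lay just above control 13 (-0.193), so the groups overlapped at that single pair. The means were -0.55 ± 0.21 (SD, n = 5) in cafeteria rats and 0.23 ± 0.41 (SD, n = 4) in controls, a difference of -0.78 (SE 0.18), or 1.72-fold lower. The probe lies at chr19:24967507-24967566 on the rn4 build, as do all positions of probes below, and the files give neither exon nor untranslated region for any probe. It was bright, with Cy5 intensities of 3691.1 to 9677.8. Its spread within groups, 0.312, was among the larger ones of all probes (percentile 92.1).

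By limma, a linear model fitted to every probe, 0 of the 10 member probes had an adjusted p under 0.05, as had 0.00775% of all 25811 probes tested (2 probes). At an unadjusted p under 0.05 there was 1 member probe, that of Calr, beside 4.41% of all probes. Nothing is read from these counts, since the genes were picked on this contrast. The difference for Calr was -0.62 to -0.81 under every other scaling tried. It rested in part on control 1: without that rat it was -0.61 (SE 0.15), in a fit that called 0.00387% of all probes and no member. Within the 2 slides that held both groups it was -1.37 (control 1 with cafeteria 1) and -0.50 (control 13 with cafeteria 10), and within the 2 extraction sessions -0.36 and -0.92.
Markers of blood cell types were read beside it. B cell markers were higher in cafeteria rats for 9 of 9 genes (median 0.263, with means per rat of -0.24 to 0.13 in controls and -0.20 to 0.38 in cafeteria rats) and erythroid markers for 8 of 10 (median 0.460, -0.68 to -0.33 against -0.54 to -0.10). T cell markers were higher for 1 of 11 (median -0.135, -0.27 to 0.14 against -0.49 to 0.05) and platelet markers for 0 of 10 (median -0.414, -0.23 to 1.02 against -0.76 to 0.35). Cytotoxic T and NK cell markers were higher for 7 of 9, monocyte markers for 5 of 12 and neutrophil markers for 2 of 6. None of these marker genes passed the limma adjusted threshold, and their part in the Calr difference was not tested. In RNA from mixed cells, fewer cells of a type and less RNA per cell cannot be told apart.

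**Figure D1:**
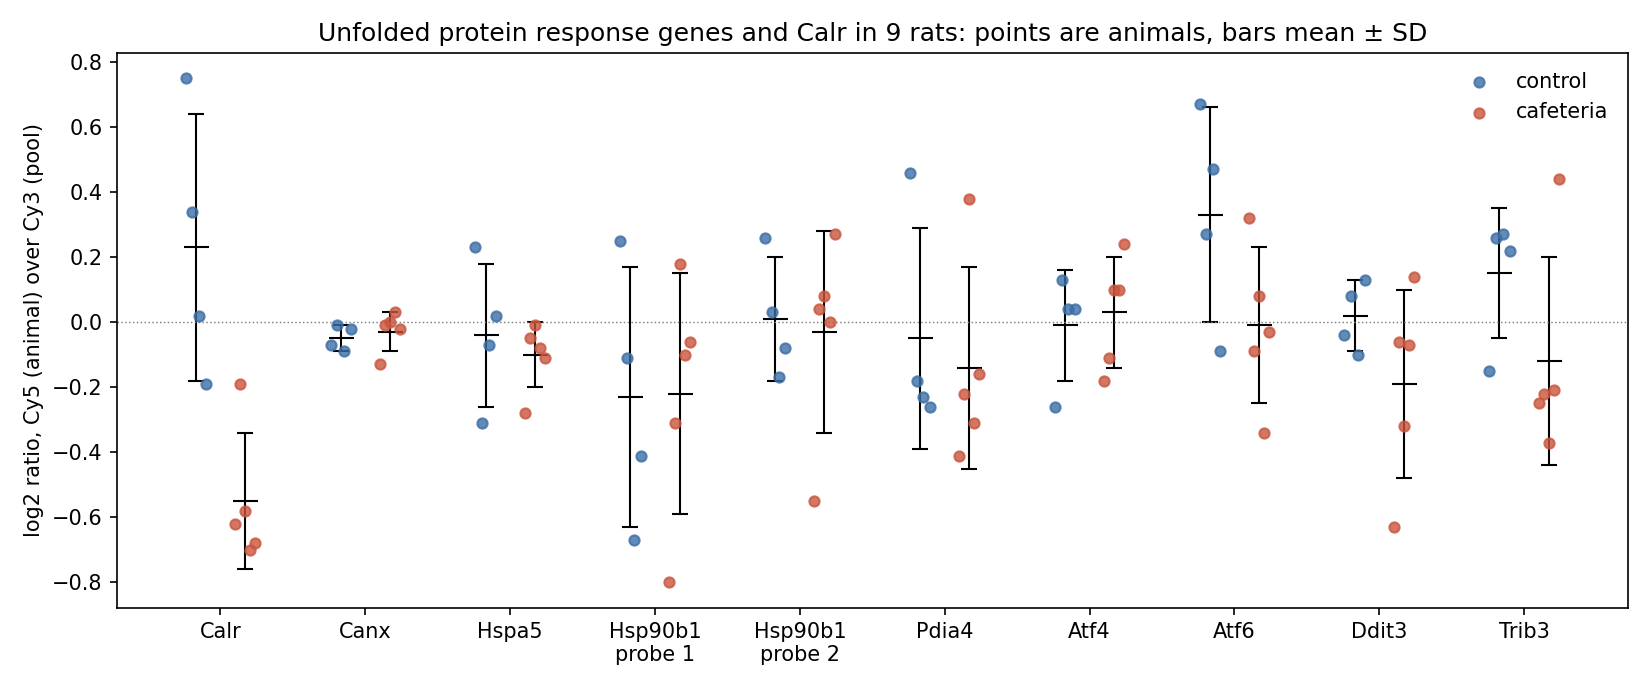
Log2 ratio of each member probe to the pooled reference (vertical axis), with 1 point per rat in blue (4 controls) and red (5 cafeteria rats) and black bars for mean ± SD. For Calr 4 of the 5 cafeteria rats lie below all controls, at -0.58 or lower, whereas for the other probes the groups overlap more widely.

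Calnexin, the membrane-bound partner of calreticulin, was at much the same level in all rats. Canx (chr10:35862130-35862189) was at -0.07, -0.01, -0.09 and -0.02 in controls 1, 4, 7 and 13. It was at -0.13, -0.01, 0.00, 0.03 and -0.02 in cafeteria rats 1, 4, 7, 10 and 13. All 9 rats lay within 0.16 of each other, and the difference was 0.02 (SE 0.05). Its spread within groups, 0.0524, was among the smallest of all probes (percentile 3.33) and close to the 0.05 by which repeated spots of 1 probe differ on the same array (median SD of 182 repeated probes). The probe was dim, with Cy5 intensities of 205.2 to 371.9, and normexp with an offset pulls dim ratios together. The spread was 0.126 by the scanner software's log ratio and 0.0874 without background correction. In cafeteria 4 and control 4 the correction itself raised the signal, to a log2 Cy5 of 10.46 and 9.70 from intensities of 282.2 and 244.8. In the other rats the corrected log2 Cy5 was 7.88 to 8.82.

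Hspa5, the chaperone most often read as a gauge of ER stress, differed little between the diets beside its spread. Its ratio (chr3:13787739-13787798) was 0.23, -0.31, -0.07 and 0.02 in controls 1, 4, 7 and 13. In cafeteria rats 1, 4, 7, 10 and 13 it was -0.28, -0.05, -0.01, -0.08 and -0.11. The highest and the lowest rat were both controls, and the cafeteria rats lay between them. The difference was -0.07 (SE 0.10), and it was -0.30 with the slide as a block, a fit that rests on the 2 slides with both groups.

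Both Hsp90b1 probes ran from high in control 1 to lowest in cafeteria 1. For the first (chr7:23334474-23334623) controls 1, 4, 7 and 13 were at 0.25, -0.11, -0.67 and -0.41. Cafeteria rats 1, 4, 7, 10 and 13 were at -0.80, -0.31, 0.18, -0.10 and -0.06, so each group spanned almost the whole range. For the second (chr7:23346248-23347359, an interval longer than a probe) the controls ran from -0.17 to 0.26 and the cafeteria rats from -0.55 to 0.27. The differences were 0.02 (SE 0.22) and -0.04 (SE 0.16), and the probes followed each other across the rats (Pearson r = 0.86, n = 9). With the slide as a block both came to -0.37, where control 1 and cafeteria 1 share a slide.

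Pdia4 (chr4:75929978-75931486) stood apart in 1 rat of each group. It was at 0.46 in control 1 and 0.38 in cafeteria 7, and between -0.41 and -0.16 in the other 7 rats (-0.18, -0.23 and -0.26 in controls 4, 7 and 13, and -0.41, -0.22, -0.31 and -0.16 in cafeteria rats 1, 4, 10 and 13). With 1 high rat on each side, the difference between the diets was -0.09 (SE 0.19). It was -0.45 with the slide as a block and 0.08 without control 1. With the slide as a block the mean difference of the plasma cell markers, given below, came to -0.491, and its part in the chaperone values was not tested.

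Of the regulators, Atf6, the ER-anchored sensor whose cleaved form binds the ERSE, had the largest difference. Its ratio (chr13:86673253-86687904) was 0.67, 0.27, 0.47 and -0.09 in controls 1, 4, 7 and 13. In cafeteria rats 1, 4, 7, 10 and 13 it was 0.32, -0.09, 0.08, -0.34 and -0.03. Control 13 sat among the cafeteria rats and the other 3 controls above most of them. The difference was -0.34 (SE 0.16), and -0.23 without control 1. Arrays of this kind read transcript level and neither the cleavage of Atf6 nor the splicing of Xbp1.

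The branch downstream of PERK was uneven. Atf4 (chr7:118538840-118538899), its transcription factor, was at -0.26, 0.13, 0.04 and 0.04 in controls 1, 4, 7 and 13. Cafeteria rats 1, 4, 7, 10 and 13 were at -0.18, -0.11, 0.10, 0.10 and 0.24. The groups covered nearly the same range and the difference was 0.04 (SE 0.11), with control 1 the lowest of the 9 rats. It was -0.13 with median centring in place of loess. The probe was very bright, with Cy5 intensities of 60248.1 to 130268.1.

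Ddit3 (chr7:67251675-67252036), which encodes the pro-apoptotic factor CHOP, was at -0.04, 0.08, -0.10 and 0.13 in controls 1, 4, 7 and 13. Cafeteria rats 1, 4, 7, 10 and 13 were at -0.63, -0.06, -0.32, -0.07 and 0.14. The lowest values were those of cafeteria 1 and 7. The difference was -0.21 (SE 0.14), -0.10 without cafeteria 1 and -0.40 with the slide as a block. Trib3 (chr3:142664064-142664123), a pseudokinase induced by Atf4 and CHOP that restrains Akt, was at -0.15, 0.26, 0.27 and 0.22 in controls 1, 4, 7 and 13. Cafeteria rats 1, 4, 7, 10 and 13 were at -0.25, -0.22, -0.37, -0.21 and 0.44. In each group 1 rat went against the rest: control 1 was near the cafeteria rats, and cafeteria 13 was the highest of all. The difference was -0.27 (SE 0.16), -0.37 without control 1 and -0.41 without cafeteria 13.

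Counted by gene, with each gene read from its brightest probe, 3 of the 9 members were higher in cafeteria rats and 6 lower (median -0.089), where 54.8% of all 22103 genes or transcripts tested were higher (median 0.010). Without control 1, 4 of 9 were higher, beside 56.0% of all. The diets were fully separated for 0 of the 10 member probes, where they were so for 1.27% of all probes (0.821% lower and 0.453% higher in cafeteria rats). Single rats weighed on several members at once. Control 1 had the highest of the 9 values for 5 of the 10 probes (Calr, Hspa5, the first Hsp90b1 probe, Pdia4 and Atf6), where it did so for 16.7% of all probes, and the highest or second highest for 6, against 28.3%. Cafeteria 13 had the highest value for 4 probes (the second Hsp90b1 probe, Atf4, Ddit3 and Trib3), against 10.3% of all probes, and cafeteria 10 that of Canx.

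**Figure D2:**
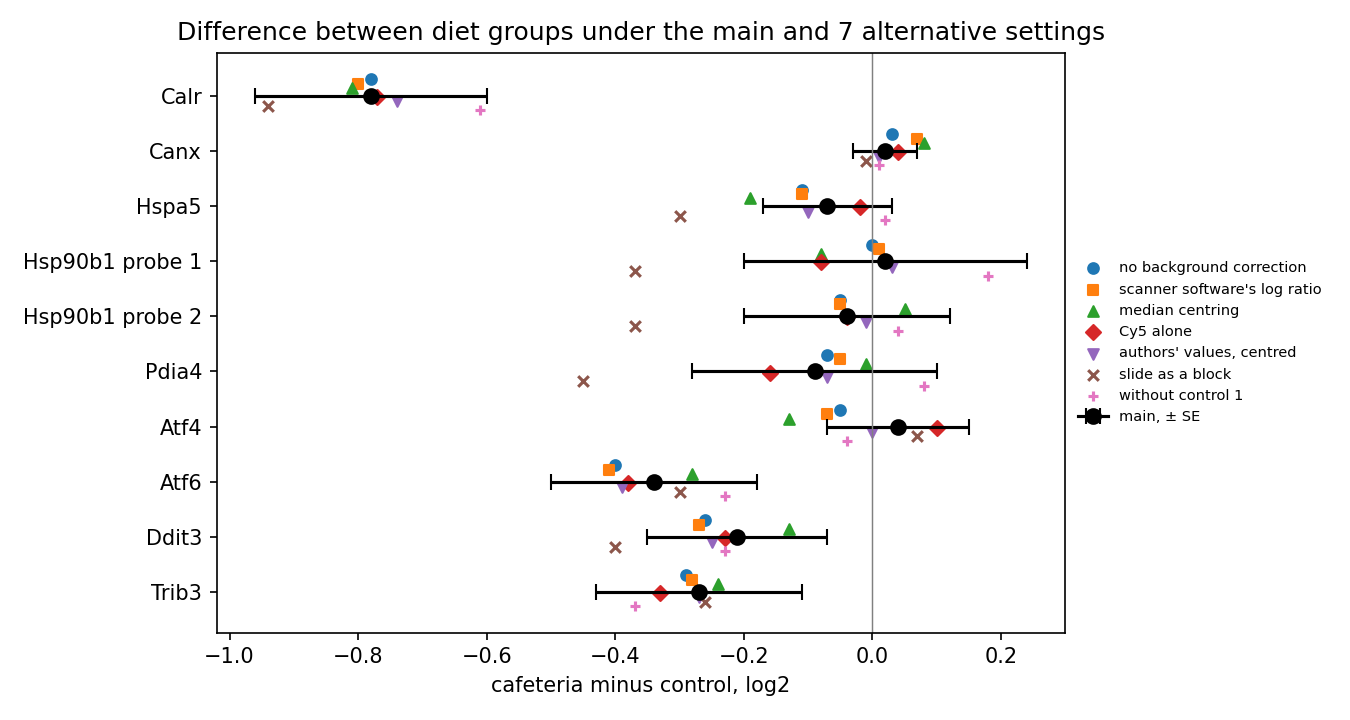
Difference between the diets for each member probe (horizontal axis, cafeteria minus control, log2): black points with bars are the value reported ± SE, and coloured marks are 7 alternatives. Calr lies between -0.94 and -0.61 under all of those drawn, whereas Hspa5, both Hsp90b1 probes and Pdia4 lie at -0.30 or below when the slide is a block.

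The choice of genes used no relation between them, but the tests and the marker list were picked with earlier results of these data known. The p-values of the relations carry that limit. In all, 17 relations across the 9 rats were tested. They were each member with Hspa5, and each with the mean of the 8 plasma cell markers measured (Jchain, Mzb1, Sdc1, Prdm1, Irf4, Tnfrsf17, Cd38 and Slamf7). That mean was 0.51 in control 1 and 0.38 in cafeteria 7, between -0.40 and -0.09 in 6 rats, and -0.69 in cafeteria 1. It ranged from -0.40 to 0.51 in controls and from -0.69 to 0.38 in cafeteria rats. The markers were lower in cafeteria rats for 8 of 8 genes (median -0.086), and for 2 of 8 without control 1. Jchain, the joining chain of secreted IgA and IgM, and Tnfrsf17, the receptor BCMA, are part of the marker mean and ranged more widely. Jchain was at 1.29 in control 1, 0.95 in cafeteria 7 and -1.32 in cafeteria 1. Tnfrsf17 was at 1.13, 0.94 and -1.69 in the same rats. Mzb1 and Irf4 were likewise highest in control 1 and lowest in cafeteria 1. The other markers followed less closely. In cafeteria 1 Sdc1 was at 0.17 and Slamf7 at 0.01. Prdm1 was at -0.10 in control 1 and 0.06 in cafeteria 7, and Cd38 was lowest in control 7 (-0.54).

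Pdia4 followed the plasma cell markers closely. Pearson r was 0.93 (n = 9, two-sided exact permutation p = 0.000559, adjusted over the 17 relations 0.0095). Spearman's rho was 0.82 (exact permutation p = 0.0108, adjusted 0.184), which did not pass after adjustment. Leaving out the 2 rats farthest from the median (cafeteria 1 and control 1) gave r = 0.91. Leaving out the 2 rats with the highest marker mean (control 1 and cafeteria 7), an alternative added after the values were seen, gave r = 0.82. It was 0.93 with the mean of each diet group subtracted, 0.89 to 0.96 under the other scalings, and 0.95 within the 6 arrays of the second extraction session. No slide held over 2 arrays, so no value within a slide could be had.

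Hsp90b1 came next, with r = 0.83 (n = 9, exact permutation p = 0.00596, adjusted 0.0507) and rho = 0.70 (exact permutation p = 0.0433, adjusted 0.368), just short of the threshold. It was 0.61 without cafeteria 1 and control 1, and 0.63 without control 1 and cafeteria 7. Hspa5 reached r = 0.65 (n = 9, exact permutation p = 0.0608, adjusted 0.258), with rho = 0.33, and the relation rested on cafeteria 1 and control 1: without them r was -0.01. For Calr r was 0.46 (n = 9, exact permutation p = 0.209, adjusted 0.592) and 0.02 without control 1. For the same gene it was -0.27 without cafeteria 1 and control 1, and 0.35 without control 1 and cafeteria 7. With the group means subtracted it was 0.49, and within the second extraction session 0.55. Cafeteria 7 had the second highest Pdia4 and plasma cell marker mean. Its Calr of -0.58 lay among those of the other cafeteria rats. For Canx, Atf4, Atf6, Ddit3 and Trib3 r lay between -0.16 and 0.37, with no adjusted exact permutation p below 0.644. These too moved with single rats: without control 1 r was 0.63 for Atf4, 0.55 for Canx and -0.05 for Atf6, and without control 1 and cafeteria 7 it was 0.78 for Atf4, 0.75 for Ddit3, 0.59 for Canx and 0.57 for Trib3. Without cafeteria 1 and control 1 it was -0.77 for Ddit3 and -0.41 for Trib3, and with median centring 0.81 for Canx. The difference between any 2 of these correlations was not tested.

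**Figure D3:**
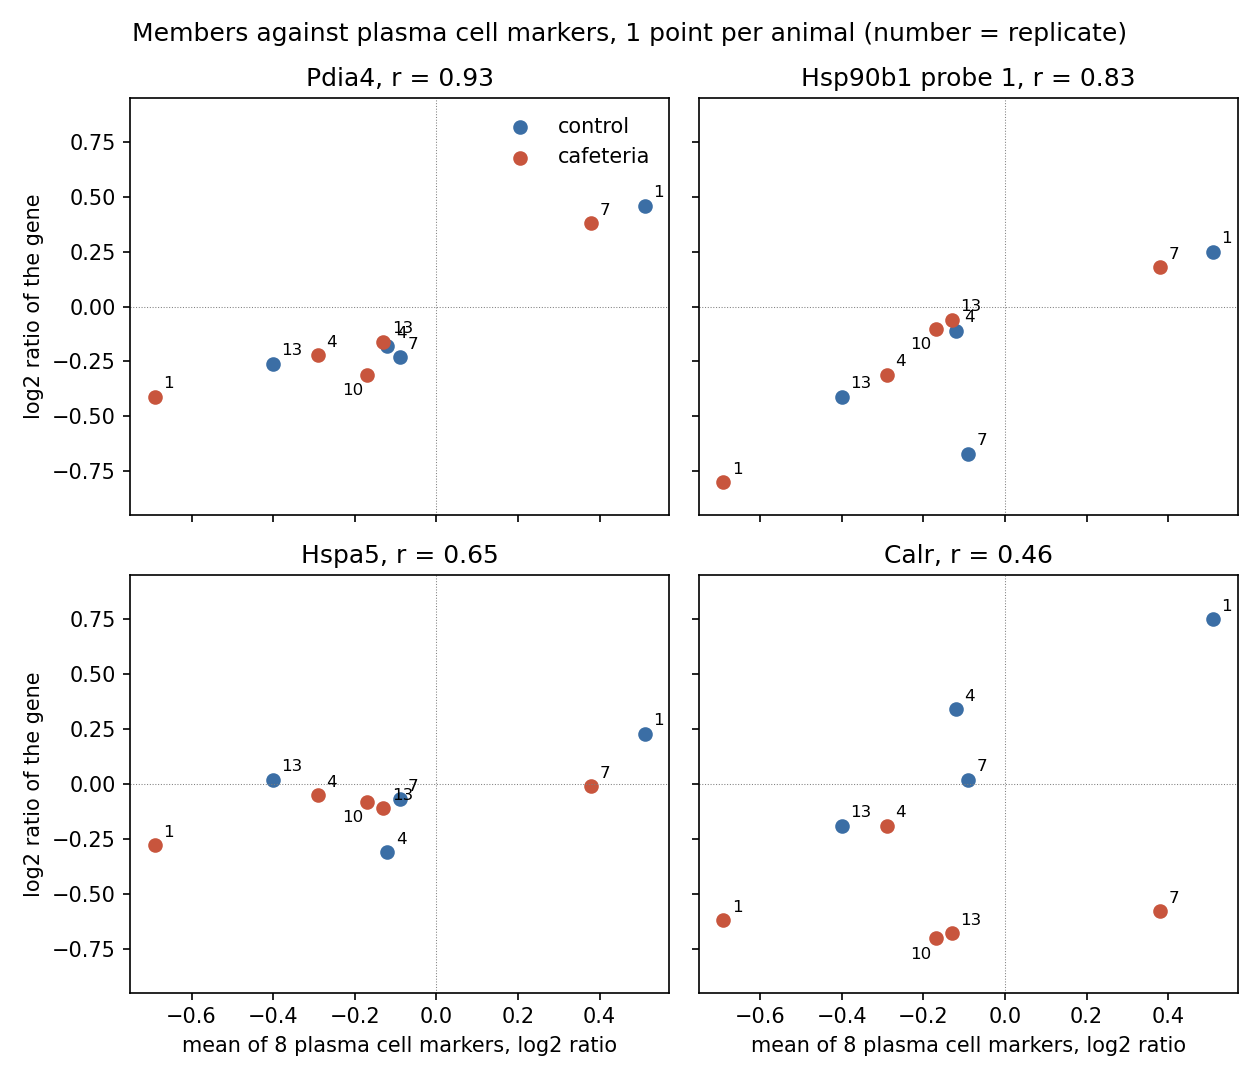
Log2 ratio of Pdia4, Hsp90b1 (first probe), Hspa5 and Calr (vertical axes) against the mean log2 ratio of 8 plasma cell markers (horizontal axis), 1 point per rat, numbered as in the labels, controls in blue and cafeteria rats in red. Pdia4 is high in the same 2 rats as the markers, control 1 and cafeteria 7. Calr is at 0.75 in control 1, and at -0.58 in cafeteria 7, among the other cafeteria rats. Differences between these relations were not tested.

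With Hspa5 itself, r was 0.67 for Pdia4 (n = 9, exact permutation p = 0.053, adjusted 0.258), 0.50 for Hsp90b1, 0.37 for Calr and between -0.36 and 0.28 for the other 5 members, and none passed after adjustment. These values depended on which rats entered. Without control 1, r with Hspa5 was 0.36 for Pdia4, 0.24 for Hsp90b1 and -0.27 for Calr. Without the 2 rats farthest from the median of Hspa5 (control 1 and control 4) it was 0.48 for Pdia4, 0.55 for Hsp90b1 and 0.41 for Calr, and for the other 5 it ran from -0.42 for Atf6 to 0.74 for Canx. Under median centring, which leaves a trend with intensity in each array, r with Hspa5 was 0.62 to 0.85 for all 8 members, so the size of these relations depends on how the dyes are normalized. Between all 45 pairs of member probes, r is a description, since every value shares its array with the others. It was highest for the 2 probes of Hsp90b1 (0.86), then Hsp90b1 with Pdia4 (0.79), Calr with Atf6 (0.71) and Ddit3 with the second Hsp90b1 probe (0.71). Atf4 and the genes it induces ran together moderately, Ddit3 with Trib3 at 0.68, Atf4 with Trib3 at 0.55 and Atf4 with Ddit3 at 0.46. Canx and Atf6 ran opposite to each other (-0.75). The Canx values spanned only 0.16, with a spread within groups close to that of repeated spots, so little can be read from this value.

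**Figure D4:**
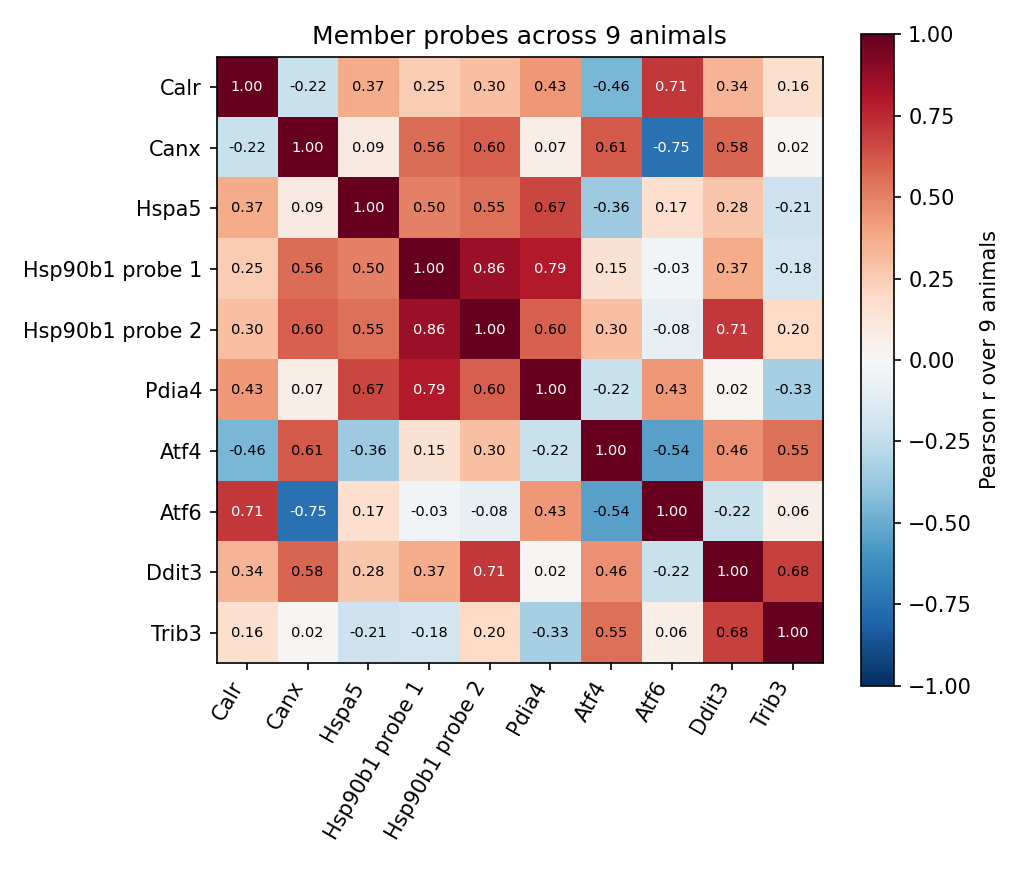
Pearson correlation of each pair of member probes across the 9 rats, from -1 (blue) to 1 (red), with the value printed in each cell. The chaperone block of Hsp90b1 and Pdia4 reaches 0.60 to 0.86, and Calr exceeds 0.43 only with Atf6.

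Patterns across the 9 rats were compared over 22035 genes and unnamed transcripts with values on all arrays, and the nearest with a RefSeq symbol are named; transcripts with only an accession, probe number or LOC number were passed over. For Calr the 5 nearest so named, at ranks 1, 2, 4, 5 and 6 of all, were Rab2a (r = 0.978), a GTPase of ER-to-Golgi traffic; Eloa (0.957), elongin A; Dnajb6 (0.946), a cytosolic and nuclear Hsp40; Ppil1 (0.946), a spliceosomal peptidyl-prolyl isomerase; and Fyco1 (0.946), an adaptor for transport of autophagosomes. Their differences between the diets had the same sign as that of Calr, which shared rats and contrast make part of their likeness: -0.32 (SE 0.09) for Rab2a, -0.97 (SE 0.24) for Eloa and -0.65 (SE 0.12) for Fyco1. In all, 29 genes or transcripts (0.13%) had r above 0.9. Of the other members the nearest was Atf6, at rank 671 (0.710), and Hspa5 came at rank 3676 (0.367). For Hspa5 the 5 nearest so named, at ranks 3, 4, 6, 7 and 10 of all, were Rif1 (0.908), which acts in DNA replication timing and repair, Prps1 (0.895), a phosphoribosyl pyrophosphate synthetase, Xylt2 (0.893), a xylosyltransferase of proteoglycan synthesis, Ankrd12 (0.884) and the kinase Csnk1g1 (0.872). None of these 10 genes is a member of the lists of the pathway.

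The wider response was read from 86 further genes in 6 lists by role, of which 68 could be tested. None passed the limma adjusted threshold in either direction (lowest adjusted p 0.997, where 0.00452% of all genes passed). An unadjusted p under 0.05 was reached by 0 higher genes and 1 lower gene, where 4.08% of all genes reached it. In cafeteria rats 31 were higher and 37 lower, with a median of -0.004 against 0.010 for all genes. Control 1 held the highest of the 9 values for 18 of the 68 (26.5%), where it did so for 16.0% of all genes.

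Among the sensors and their processing enzymes 5 of 6 genes were higher, with a median of 0.027. Atf6b, the paralog of Atf6, differed by 0.12 (SE 0.08), and Eif2ak3 by 0.06 (SE 0.06). Mbtps2, a protease that cleaves Atf6, differed by -0.05 (SE 0.07).
Of 13 ER chaperones and cochaperones 5 were higher (median -0.009), and 10 of 13 without control 1 (median 0.054). Control 1 was the highest rat for 6 of them. Dnajc3, an ER cochaperone of Hspa5, differed by -0.24 (SE 0.16), and Selenos by -0.10 (SE 0.07). Hyou1, an ER Hsp110, differed by 0.11 (SE 0.18), but by -0.04 without control 1, and its other probe by -0.08.
Of 10 disulfide isomerases and oxidases 4 were higher (median -0.007), and 9 without control 1 (median 0.047). Erp29 differed by 0.20 (SE 0.22), Pdia2 by 0.13 (SE 0.06) and Pdia3, the isomerase that works with calreticulin and calnexin, by -0.12 (SE 0.18).
In the calnexin cycle and glycan trimming, 3 of 7 were higher and the median was 0.00. Lman1, a cargo receptor for glycoproteins, differed by -0.18 (SE 0.12) and its other probe by 0.01, the glucosidase Mogs by 0.12 (SE 0.06) and Prkcsh, the beta subunit of glucosidase II, by 0.10 (SE 0.08). By their brightest probes all 7 lay within 0.18 of 0.

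For ER-associated degradation, which clears misfolded protein, 7 of 13 genes were higher (median 0.006). Ubxn4 was the gene of lowest p (-0.29, SE 0.11, limma unadjusted p = 0.0293), but its other probe differed by 0.01. Edem1 differed by -0.14 (SE 0.09) and the ubiquitin ligase Syvn1 by 0.13 (SE 0.12). In the branch of Atf4 and CHOP 7 of 19 were higher (median -0.013). Atf3, an early stress factor, was at 0.32, 0.13, 0.17 and 0.17 in controls 1, 4, 7 and 13. It was at -1.04, 0.02, -1.01, 0.92 and 0.04 in cafeteria rats 1, 4, 7, 10 and 13, a difference of -0.41 (SE 0.35) with the cafeteria rats spread on both sides of the controls. Eif4ebp1, a brake on translation, differed by -0.26 (SE 0.17) and Slc3a2, the heavy chain of amino acid transporters, by -0.20 (SE 0.13).

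**Figure D5:**
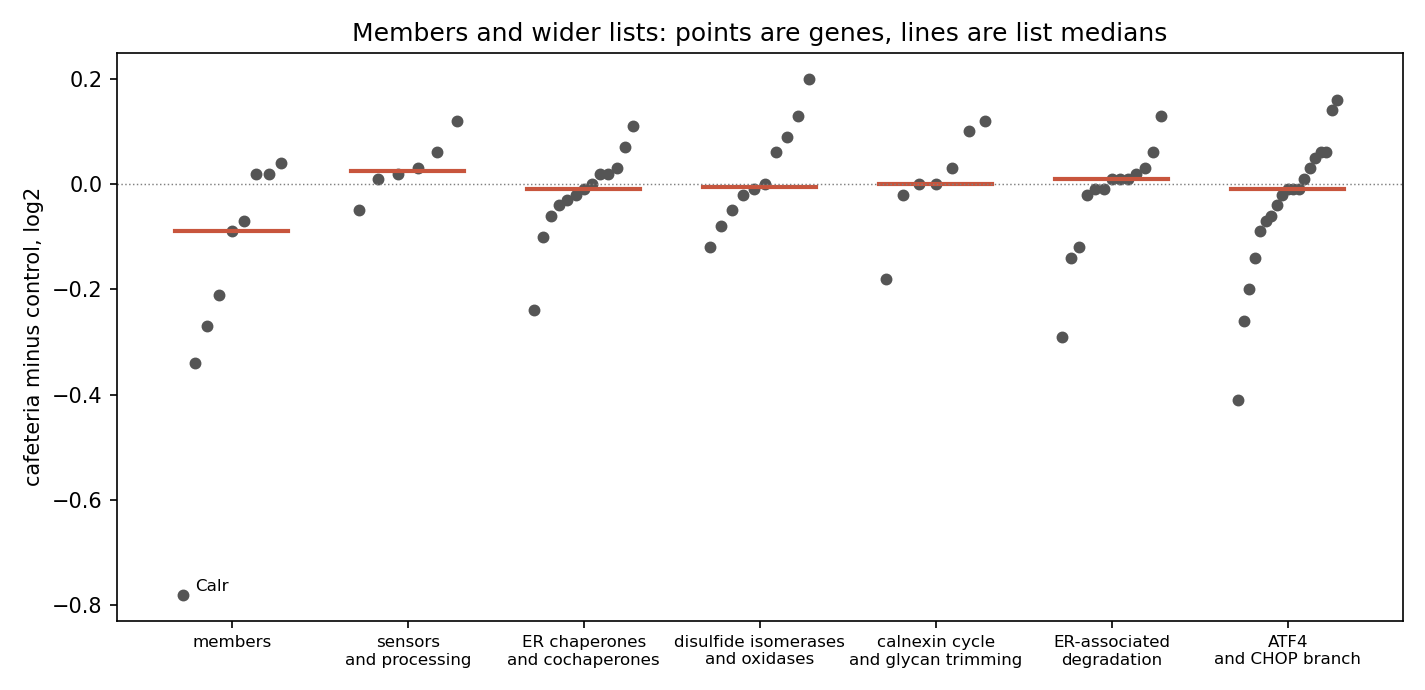
Difference between the diets (vertical axis, cafeteria minus control, log2) of each tested gene, for the 9 members and the 6 wider lists; points are genes and red lines list medians. Calr, at -0.78, lies below every gene of the wider lists, whose medians are between -0.013 and 0.027. The members were chosen with these differences in view, so the place of Calr is a description and nothing is read from it.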

How the data were processed

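Per the file headers, the authors read each array with Feature Extraction 9.5.1.1, and the deposited files hold, without normalization, the mean spot intensity and the median local background of both dyes, beside a log10 ratio of Cy5 over Cy3 that the software had already corrected and dye-normalized. A deposited table of log2 values (filled for 21466 of 45220 spots) followed Cy5 (rank correlation 0.993 to 0.999). Its column medians ran from 9.40 to 9.69; how it was centred and how the reference entered it are not given in the sources used here.

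From the intensities, with limma 3.58.1 in R 4.3.3, background was corrected by normexp (offset 50), ratios were loess-normalized within arrays and repeated spots averaged. In control 4 and cafeteria 4 this correction raised the lower signals, which can draw their ratios together. Pdia4 in cafeteria 4, for example, had a corrected log2 Cy5 of 10.82 from an intensity of 804.7. Without background correction the difference between the diets was -0.78 for Calr and -0.07 for Pdia4. Probes with Cy5 well above background on at least 4 arrays (25811 of 41012) were fitted by diet, with 7 residual and 2.93 prior degrees of freedom and Benjamini-Hochberg adjustment. Symbols were updated through RefSeq (GRCr8) for 19625 probes (47.85%). Named were all members, the 3 genes of each wider list with the largest difference, and, for Calr and for Hspa5, the 5 most like genes that have a RefSeq symbol other than a LOC or RGD number. Members, lists and tests were chosen with earlier results of these data known. Alternatives were other scalings, no filter, slide, extraction session or replicate number as a block, and leaving out each array.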

Additional observations from a re-analysis of the deposited data

Results flagged for a closer look

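Of 48 groups of values examined (each member probe, marker list and pathway list in each diet group), 7 held a rat far from the others by Dixon's criterion, where chance gives about 1 in 20. Among members, Calr in cafeteria 4 was -0.19, with the other cafeteria rats between -0.70 and -0.58. Canx in cafeteria 1 was -0.13, against -0.02 to 0.03. Pdia4 in control 1 was 0.46, with the other controls between -0.26 and -0.18. Trib3 in control 1 was -0.15, against 0.22 to 0.27, and Trib3 in cafeteria 13 was 0.44, against -0.37 to -0.21. Among marker lists, the mean of the B cell markers in control 4 was 0.13, against -0.24 to -0.20, and that of the erythroid markers in cafeteria 7 was -0.54, against -0.22 to -0.10.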

How the results depend on the processing

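Over 523 alternatives of the values named, 90 moved a value; of 190 for member differences 7 moved it. Those 7 were Canx (0.08 with median centring, 0.14 with the authors' values), Atf4 (-0.13 with median centring), and with the slide as a block Hspa5 (-0.30), both Hsp90b1 probes (-0.37 each) and Pdia4 (-0.45). Calr ran from -0.92 to -0.61 when 1 rat was left out. No member probe and no gene of the wider lists was called under any alternative run. Over all probes the 2 calls came to 0 with median centring, Cy5 alone, no background correction, the ratio of the scanner software, the authors' values (centred or not), or the slide or replicate block. They came to 3 with the extraction session as a block, and to 0 to 2 when 1 rat was left out. The members higher in cafeteria rats (3 of 9) were 1 without background correction, 1 with median centring, 1 with the slide as a block, 5 with the authors' values, which shift the median of all probes by 0.127, and 1 to 4 when 1 rat was left out. Rats of the 2 groups with the same animal number showed little shared deviation (correlations of deviations -0.145 to 0.112). That cannot settle whether the numbers pair rats by design. With the replicate number as a block Calr was at -0.75. The causes of these moves were not tested. All member spots were well above background. For the relation of Pdia4 with the plasma cell markers, the alternatives give r without a p, so whether it still passes under them was not run.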

Other observations

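The genes most like Pdia4 across the 9 rats were looked up after its values were seen, so they are a description. The 5 nearest with a RefSeq symbol, at ranks 1, 3, 5, 9 and 17 of 22035 genes and unnamed transcripts, were Bhlha15 (r = 0.975), the transcription factor Mist1 of secretory cells; Fkbp11 (0.963), an ER prolyl isomerase abundant in plasma cells; Ssr1 (0.961) and Sec61a2 (0.956), which take part in translocation of proteins into the ER; and Cst6 (0.935), a secreted cystatin. The ranks between are transcripts with only an accession or probe number. In all, 57 (0.26%) had r above 0.9 with Pdia4. Of the 8 plasma cell markers, Jchain (0.923), Tnfrsf17 (0.877) and Mzb1 (0.873), an ER cochaperone of antibody assembly, lay at ranks 28, 87 and 100. The other 5 lay lower: Slamf7 at rank 438 (0.785), Irf4 at 729 (0.726), Cd38 at 1624 (0.608), Prdm1 at 2598 (0.520) and Sdc1 at 3074 (0.480). All these values share the same arrays. Calr was at rank 3741 in that order (0.431), and at r = -0.114 with Pdia4 without control 1.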
